A study of Mus musculus with 3 samples.

Results

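Ad4BP/SF-1, the nuclear receptor encoded by Nr5a1, was immunoprecipitated from Leydig cells, the androgen-producing cells of the testis, and the bound DNA was sequenced. The cells came from 9-week-old male mice of the ICR strain, were pooled after a density gradient, were grown on collagen and were given vehicle or cAMP. The dose and duration of cAMP are not given in the sources used here. Each condition had 1 library, so no difference between vehicle and cAMP has a replicate check, and the third sample, input DNA, was not analysed here. Promoter peaks were those whose centre lay within 1 kb of the start of any protein-coding transcript of a protein-coding gene (GENCODE M21, mm10). There were 614 among the 5721 peaks of the vehicle list and 350 among the 4025 peaks of the cAMP list, together 964 of 9746. The lists were kept apart, because a site bound in both conditions appears in each.

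Ad4BP/SF-1 is made in the gonads, the adrenal cortex and a few other tissues, where it is known for driving the genes of steroid synthesis. Unlike most nuclear receptors it binds DNA as a monomer, through a hormone response half-site with an extended 5′ side. The form searched for here, called the consensus below, was TCAAGGTC, TCAAGGCC, CCAAGGTC or CCAAGGCC on either strand. cAMP is the second messenger of luteinizing hormone in Leydig cells. A promoter is the stretch around a transcription start where the polymerase is loaded, and many promoters of widely expressed genes are rich in CpG dinucleotides.

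Sites from promoters with a peak in both lists are printed to show what the consensus looked like at the strongest promoter peaks and at genes of respiration and carbon metabolism. Each is the mm10 sequence read 5′ to 3′ on the strand that carries the copy, with the consensus in capitals and flanks in lower case.
Atp5b, chr10:128083486-128083515, minus strand: taggcccaagcTCAAGGTCacggggagaag
H2afy, chr13:56135596-56135625, minus strand: gcaggccggggTCAAGGCCggggcgccgag
Cox8a, chr19:7217535-7217564, plus strand: cgaggaccagtCCAAGGTCagggagtcaag
Slc25a39, chr11:102407676-102407705, plus strand: cggccggcaggTCAAGGTCgccgactggac
Mpc1, chr17:8282855-8282884, minus strand: tggtgggaagtTCAAGGTCaccactgagtc
Aldoa, chr7:126798550-126798579, plus strand: cagactcagaaTCAAGGTCacagataagga
Clec2d, chr6:129180491-129180520, minus strand: ggaaacgcattTCAAGGTCaggagccacac
Acacb, chr5:114175660-114175689, plus strand: gagtcctaaacTCAAGGTCaggggcagaag
Ndufb6, chr4:40279385-40279414, minus strand: ttccaggcgccTCAAGGTCgctttgcggag
Ogdh, chr11:6292155-6292184, minus strand: tgccgcaggcaCCAAGGTCagcgccgtgtc

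The next set comes from promoters of the steroid pathway, in which Ad4BP/SF-1 is best known. Star moves cholesterol into mitochondria, Fdx1 is the ferredoxin that supplies electrons to mitochondrial P450 enzymes, and Cyp11a1 cleaves the cholesterol side chain.
Star, chr8:25808508-25808537, minus strand: tcctgagccttTCAAGGTCctgagtcctgc
Fdx1, chr9:51963389-51963418, plus strand: gccgacagcggTCAAGGCCgcggaaaggga
Cyp11a1, chr9:58018153-58018182, minus strand: caggtcccgccTCAAGGTCacagatgccac

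A further set comes from the strongest cAMP promoter peaks that no vehicle peak overlapped. In the copies printed for Pi4kb and Ppib the consensus read TCAAGGCC and was followed by agcctgg in both. The TCAAGGCC copies at Zfp184, Nfkbid and Crybg2, from the same group of peaks and not printed, were not followed by those bases. The Pi4kb copy printed lay 826 bp upstream of the start. Another Pi4kb copy, CCAAGGTC, lay 546 bp upstream, closer to the peak centre at 510 bp, and is not printed.
Pi4kb, chr3:94973890-94973919, plus strand: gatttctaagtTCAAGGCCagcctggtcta
Wipi2, chr5:142628755-142628784, plus strand: agaccgggaatTCAAGGTCaacctcagcta
Timp3, chr10:86299456-86299485, plus strand: agatcttgagtTCAAGGTCagcctgggcta
Ppib, chr9:66059706-66059735, minus strand: tggtaaaaagtTCAAGGCCagcctgggcta

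Peaks were concentrated at starts. Promoter peaks made up 10.7% of the vehicle list (95% interval 9.94 to 11.6) and 8.70% of the cAMP list (7.84 to 9.61), whereas 2.37% of the bases of the chromosomes lay within 1 kb of a protein-coding start. All intervals in the text are at the 95% level and cover counting error only. The share was 2.04 percentage points higher in the vehicle library than in the cAMP library (0.841 to 3.21), a difference between 1 library and 1 library. Per 250 bp, the vehicle list held 151 peaks just upstream of starts and 99 just downstream, against 17 to 43 in the bins from 1 to 5 kb. The cAMP list held 71 and 57 in the same bins, against 12 to 32 further out. Centres lay upstream of the nearest start in 53.4% of the promoter peaks of each list (49.4 to 57.4 in vehicle, 48.0 to 58.7 in cAMP), intervals that hold equal numbers on both sides. Among cAMP promoter peaks with scores of at least 100 the share was 63.0% (52.3 to 72.9), which does not.

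**Figure D1:**
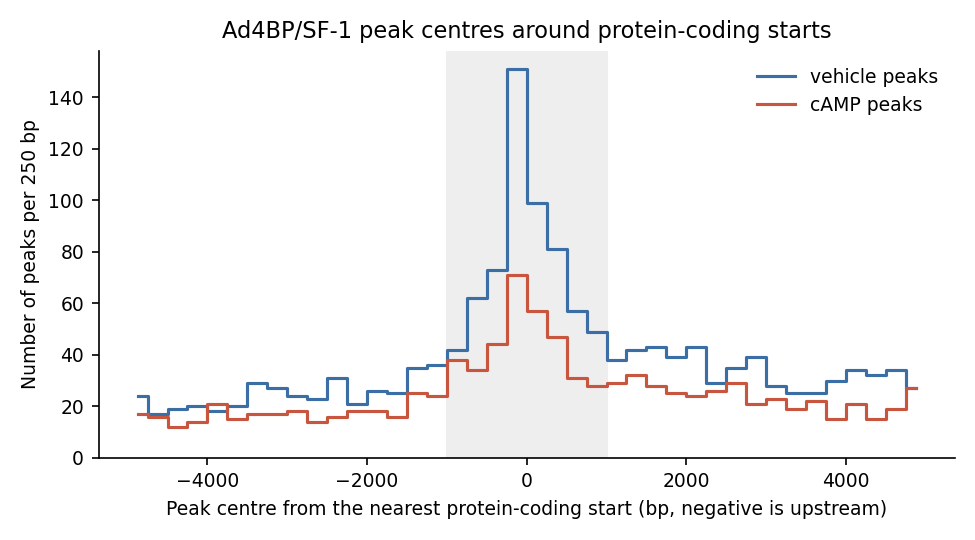
Number of peaks per 250 bp (vertical axis) against the position of the peak centre from the nearest protein-coding start in bp (horizontal axis, negative is upstream), for the vehicle and cAMP lists. The grey band marks the 1 kb window of promoter peaks, and both lines are highest in the bin just upstream of the start, at 151 vehicle and 71 cAMP peaks.

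The choice of window was arbitrary at its edge. Just inside it lay the vehicle peaks at Pcmt1 (996 bp upstream, score 62.7) and Aldh1b1 (998 bp downstream, 61.3), and just outside it those at Fbxo7 (1007 bp downstream, 53.6) and Tmem132a (1007 bp upstream, 79.8). In the cAMP list Prx (996 bp downstream, 248) and Bcl7b (997 bp downstream, 55.2) lay just inside, and Eif4a1 (1002 bp, 92.7) and Syt11 (1003 bp, 86.4) just outside. The score, as MACS wrote it, is the negative log10 of a p-value multiplied by 10. It rises with read depth, which is unknown for both libraries, and both lists begin at 50, so a peak missing from a list may lie just under its limit.

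Of the vehicle promoter peaks, 44.1% were centred in an intron, 35.7% outside any protein-coding transcript, 14.7% in a 5′ untranslated exon and 4.56% in coding sequence. The nearest start was the outermost of its gene for 58.8% of vehicle and 59.7% of cAMP promoter peaks, and an internal alternative start for the rest. Some genes had more than 1 promoter peak, most often nearest to different starts of the gene. There were 16 such genes in the vehicle list, with 3 peaks at Pptc7 and 2 each at Adgrg1, Mkrn1, Atp5j and Pkm, and 9 in the cAMP list, with 2 each at Fkbp8, Mkrn1, Midn, Bcl3 and Got1. Both cAMP peaks at Got1 were nearest to the same start. Conversely, 46 vehicle and 24 cAMP promoter peaks lay within 1 kb of the starts of 2 or more genes and could not be given to 1 of them. Sdhd and Timm8b shared a peak in this way.

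Of 21866 protein-coding genes, 644 (2.95%) had a vehicle promoter peak and 366 (1.67%) had a cAMP promoter peak. Both lists held a peak at 273 genes (1.25%), which was 42.4% of the vehicle genes and 74.6% of the cAMP genes. The vehicle list alone held 371 further genes and the cAMP list alone 93, for 737 genes in all. The lists differ in length and their depth is unknown, so absence from 1 list does not show absence of binding.

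The strongest shared promoters included several genes of energy metabolism. The highest promoter score in the vehicle list was at Atp5b, the catalytic beta subunit of mitochondrial ATP synthase, at 733, with 631 in the cAMP list. Pgk1, the glycolytic phosphoglycerate kinase, scored 583 in vehicle and 658 in cAMP, the highest promoter score of the cAMP list. Cox8a, a subunit of cytochrome c oxidase, scored 554 and 390 in the same order. The histone variant gene H2afy, which encodes macroH2A, scored 593 and 357. The other scores of the top 12 in the vehicle list ran from 403 to 487, at Slc25a39 (a mitochondrial carrier), Mpc1 (a subunit of the mitochondrial pyruvate carrier), Tfrc (the transferrin receptor), Enpp4, Aldoa (aldolase A), Tpm3 (a tropomyosin), Emc4 and Clec2d (a lectin-like membrane protein). In the cAMP list Acacb, an acetyl-CoA carboxylase, Fkbp8, Oxnad1 and Ehf also stood in the top 12, with scores of 367, 290, 285 and 259. The peaks at Aldoa and Oxnad1 were each shared with a neighbouring gene.

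Both scores reached 100 at 83 of the 273 shared genes. Besides those named, these included the enzymes Got1 (vehicle 327, cAMP 154), Ogdh (194, 109), Cpt1a (182, 118) and Oat (159, 135). They also included the transcription factors Nfib (174, 167), Mef2d (232, 193) and Bcl3 (148, 183) and the kinase Sgk1 (194, 121). At the other shared genes at least 1 score was under 100.

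Of the 614 vehicle promoter peaks, 258 (42.0%, 38.1 to 46.0) were overlapped by a cAMP peak by at least 1 bp, against 37.9% of all vehicle peaks. Of the 350 cAMP promoter peaks, 260 (74.3%, 69.4 to 78.8) were overlapped by a vehicle peak, against 53.8% of all cAMP peaks. Compared with the other peaks of the same list, overlap was 4.64 percentage points higher at vehicle promoters (0.571 to 8.80) and 22.4 points higher at cAMP promoters (17.3 to 27.0). The vehicle difference did not hold within classes of score. It was -0.0471 points at scores of 50 to 75 (-4.76 to 5.35), 0.645 at 75 to 100 (-7.98 to 9.77) and 3.72 from 100 (-3.34 to 10.1). The cAMP difference held in each class, at 25.3 points (17.9 to 32.3), 17.1 points (5.69 to 25.7) and 10.3 points (4.49 to 13.2). Against other peaks 1 to 5 kb from a start it was 14.3 points (8.18 to 19.995). Of the 92 cAMP promoter peaks with a score of 100 or more, 90 were overlapped.

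The overlapping peaks formed 259 pairs, whose centres lay a median of 50 bp apart, with 215 pairs within 100 bp and 465 bp at most. The vehicle score was the higher in 192 pairs. Across the pairs the scores had a Spearman correlation of 0.546 and a Pearson correlation of 0.678 on the log10 scale, given as a description, because pairs within 2 libraries are not replicates and a few peaks enter more than 1 pair. By the ratio of the scores, the pairs furthest towards vehicle were at Tmem161b (264 against 54.3) and Zfp768 (257 against 59.6), named after their values were seen, as are the next pair. By the same ratio towards cAMP, Agpat2 scored 77.1 in vehicle and 163 in cAMP, and Nupr1 57.2 and 117. These 4 peaks have no replicate, and the difference in depth between the libraries is unknown.

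**Figure D2:**
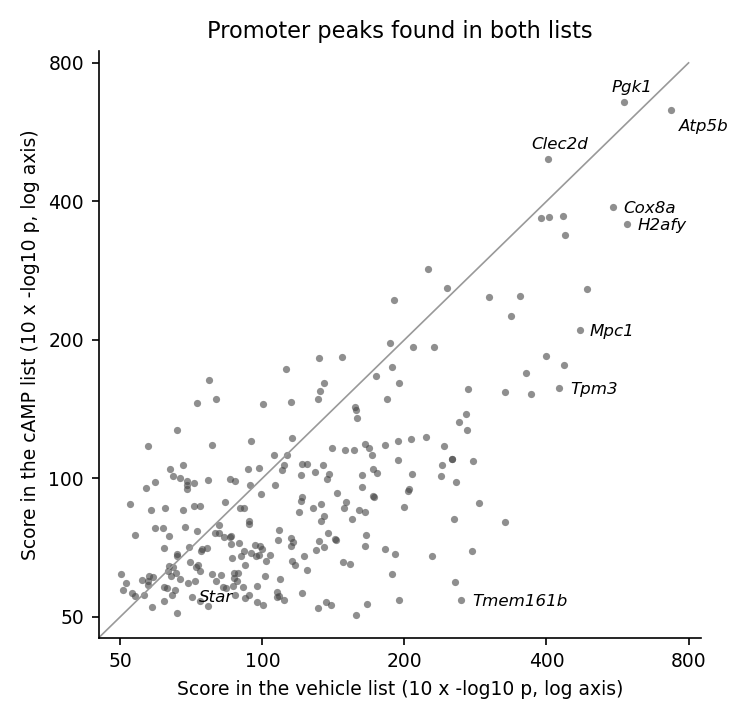
Score of each overlapping promoter peak in the vehicle list (horizontal axis) and the cAMP list (vertical axis), both 10 times the negative log10 p on log axes, with the grey line at equal scores and 1 point per pair (259). Most points, 192, lie below the line, and Pgk1 and Clec2d are among those above it.

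Vehicle promoter peaks without a cAMP overlap reached a score of 262, at Manf, which encodes a secreted protein of the endoplasmic reticulum. Crat, carnitine acetyltransferase, followed at 231, Adgrg1 at 203, Cyp2u1 at 202, the Hsp70 genes Hspa1l and Hspa1a (1 shared peak) at 202, Naca at 189, C1qtnf3 at 181 and Tmie at 172. The peaks at Crat and Tmie were also shared with a neighbouring gene. Adgrg1 had another vehicle promoter peak, at 61.6, which a cAMP peak of 77.9 overlapped, so Adgrg1 is among the genes in both lists. The cAMP promoter peaks without a vehicle overlap were weaker. Pi4kb, a phosphatidylinositol kinase, scored 112 and Wipi2, an autophagy protein, 109, and the next 6 ran from 83.2 to 99.7, at Zfp184, Timp3 (an inhibitor of metalloproteinases), Gm28372 (shared with a neighbouring gene), Nfkbid, Crybg2 and Ppib (a cyclophilin of the endoplasmic reticulum). The promoter of Crybg2 also held a separate vehicle peak. It is 1 of 3 genes that had a peak in both lists without an overlap between them, with Asap1 and Tm6sf1.

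Shared and unshared cAMP promoter peaks differed in base composition. A peak was called CpG-rich where its CpG count was more than 0.6 of that expected from its C and G content. By this measure 42.7% of the overlapped and 22.2% of the other cAMP promoter peaks were CpG-rich, a difference of 20.5 points (9.20 to 30.0). Among vehicle promoter peaks the shares were 45.3% and 44.4%, a difference of 0.967 points (-6.94 to 8.90). Put the other way, 84.7% of CpG-rich and 68.0% of CpG-poor cAMP promoter peaks were overlapped (16.7 points, 7.48 to 24.95). In all, 44.8% of vehicle and 37.4% of cAMP promoter peaks were CpG-rich, against 1.33% and 0.844% of the other peaks.

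The consensus was present in 504 of the 614 vehicle promoter peaks (82.1%, 78.8 to 85.0) and 301 of the 350 cAMP promoter peaks (86.0%, 81.9 to 89.5), beside 80.4% and 77.1% of all peaks. In windows that reached 200 bp to either side of the centre it was found in 80.5% and 84.6% of promoter peaks and in 7.72% of windows centred on the outermost starts of all protein-coding genes. Against the other peaks of the list the difference was 1.90 points for vehicle (-1.50 to 4.94) and 9.76 points for cAMP (5.51 to 13.3). The cAMP difference exceeded counting error in the lowest class of scores alone. It was 15.7 points at scores of 50 to 75 (9.39 to 20.8), 1.85 at 75 to 100 (-7.99 to 8.08) and -1.998 from 100 (-9.94 to 2.98), and against other peaks 1 to 5 kb from a start it was 0.395 points (-4.34 to 4.75). Against peaks at that distance the vehicle difference turned to -4.27 points (-8.09 to -0.593).

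Within the promoter window, the consensus was less frequent next to the start. It was present in 71.2% of vehicle promoter peaks centred within 100 bp of the start, 75.6% at 100 to 250 bp, 91.6% at 250 to 500 bp and 85.6% at 500 bp to 1 kb. The first of these was 14.4 points below the last (-23.6 to -5.56). The cAMP list gave 79.1%, 78.7%, 91.3% and 89.2% in the same order, and the difference between the first and the last was -10.1 points (-22.1 to 0.195), which did not exceed counting error. CpG-rich vehicle promoter peaks had the consensus 10.4 points less often than CpG-poor ones (76.4% against 86.7%, -16.6 to -4.22). In the cAMP list that difference was -3.25 points (-11.4 to 4.09). Between CpG-poor promoter peaks and CpG-poor other peaks the consensus was 6.35 points more frequent at promoters in vehicle (2.19 to 9.75) and 11.03 in cAMP (5.78 to 15.1), so the vehicle difference, whose interval held 0 over all peaks, lay above 0 in this class. Between the CpG-rich peaks it was 10.2 points in vehicle (-1.26 to 22.9) and 0.0985 in cAMP (-11.5 to 17.4), with few CpG-rich peaks away from promoters.

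**Figure D3:**
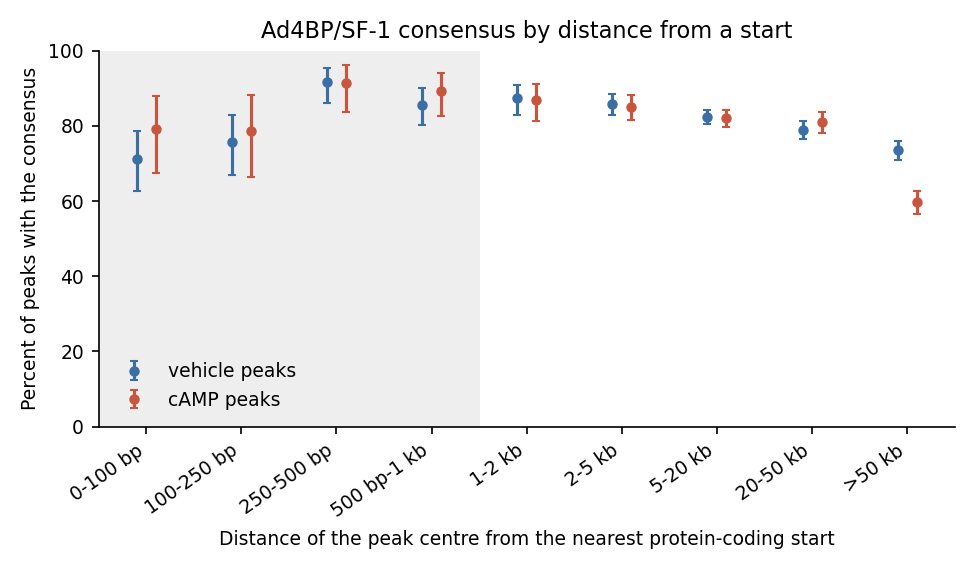
Percent of peaks with the consensus (vertical axis, with exact 95% intervals) by distance of the peak centre from the nearest protein-coding start (horizontal axis), for the vehicle and cAMP lists. The grey band marks promoter peaks. Vehicle shares are 71.2% next to the start and 91.6% at 250 to 500 bp, and the lowest share, 59.6%, is that of cAMP peaks beyond 50 kb.

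Median scores of promoter peaks differed with the number of copies of the consensus. In the vehicle list the median was 66.2 without a copy, 78.3 with 1 copy, 98.2 with 2 and 111 with 3 or more. In the cAMP list it was 64.3, 71.3 and 97.5 for 0, 1 and 2 copies, but 66.1 for the 10 peaks with 3 or more. The other peaks showed a rise too, so it was not particular to promoters. Their medians were 64.3, 71.6, 80.7 and 97.2 in vehicle and 57.7, 70.5, 78.2 and 92.8 in cAMP. Copies were counted over the whole peak. In the same order, the median width of promoter peaks was 530, 533, 593 and 630 bp in vehicle and 479, 484, 579 and 475 bp in cAMP. Promoter peaks with the consensus were also overlapped more often, by 20.2 points in the vehicle list (10.3 to 28.6) and 19.9 points in the cAMP list (6.13 to 34.5). They also scored higher, at a median of 82.2 against 66.2 in vehicle and 74.3 against 64.3 in cAMP. Overlap rose with score, from 22.2% of vehicle promoter peaks at scores of 50 to 75 to 71.1% from 100. This difference in overlap was not taken within classes of score. Median scores at promoters exceeded those of other peaks slightly, at 79.1 against 71.6 in vehicle. The share of scores of 100 or more was 6.89 points higher at vehicle promoters (3.09 to 10.9) and 3.56 points higher at cAMP promoters (-0.987 to 8.59). Against peaks 1 to 5 kb from a start the vehicle difference was 2.78 points (-1.91 to 7.53) and the cAMP difference -0.820 (-6.42 to 5.03), with intervals that hold 0.

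The 649 copies in vehicle promoter peaks lay a median of 49 bp from the peak centre, and the 388 copies in cAMP promoter peaks a median of 51 bp. TCAAGGTC was the most frequent form, at 36.2% of vehicle and 39.9% of cAMP copies, but took a larger share in the other peaks, at 43.4% and 45.7%. CCAAGGTC accounted for 23.9% of the copies at vehicle promoters (20.7 to 27.4) and 16.7% in the other peaks (15.7 to 17.7), and CCAAGGCC for 16.2% (13.4 to 19.2) and 11.7% (10.8 to 12.6). In the cAMP list CCAAGGTC took 22.4% at promoters (18.4 to 26.9) and 15.0% in the other peaks (13.8 to 16.2), and CCAAGGCC 13.7% (10.4 to 17.5) and 10.7% (9.67 to 11.7), where the intervals overlap.

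The base after the consensus and the strand of the copies were examined after other values of these data had been seen. The base, which was not part of the search, was A for 73.8% of the copies in vehicle promoter peaks (70.2 to 77.2) and 79.6% of those in cAMP promoter peaks (75.2 to 83.5). Among copies within 1 kb of genes without a promoter peak it was A for 44.2% (43.2 to 45.2). In the other peaks of the lists A followed 82.3% and 84.9% of copies. At promoters G took more of the remainder, at 12.3% in vehicle (9.90 to 15.1) against 4.30% in the other peaks (3.78 to 4.88). In cAMP it took 10.9% (7.93 to 14.4) against 3.66% (3.08 to 4.32). Within 1 kb of genes without a promoter peak G followed 8.43% of copies (7.87 to 9.01), a value inside the cAMP promoter interval. Examples are the copies printed for Atp5b (TCAAGGTC then A) and Slc25a39 and Ndufb6 (TCAAGGTC then G). The Atp5b copy that is not printed was followed by G.

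The copies also differed in strand. Upstream of the start, 49.1% of the copies in vehicle promoter peaks (43.6 to 54.6) and 53.7% of those in cAMP promoter peaks (46.6 to 60.8) read in the direction of the gene. Downstream of the start this held for 33.5% (28.3 to 39.1) and 30.5% (24.0 to 37.6), so most of those copies lay on the opposite strand. Downstream was 15.6 points below upstream in vehicle (-22.9 to -7.99) and 23.3 points below in cAMP (-32.4 to -13.5). Copies near the starts of genes without a promoter peak were also less often on the strand of the gene downstream, at 43.2% (41.8 to 44.7), than upstream, at 52.3% (50.8 to 53.7). Among vehicle promoter peaks nearest to the outermost start of a gene the downstream share was 42.6% (34.2 to 51.4), an interval that holds the value of genes without a peak, and in the cAMP list it was 37.8% (26.8 to 49.9). Many peaks are in both lists, so the lists are not independent of each other.

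**Figure D4:**
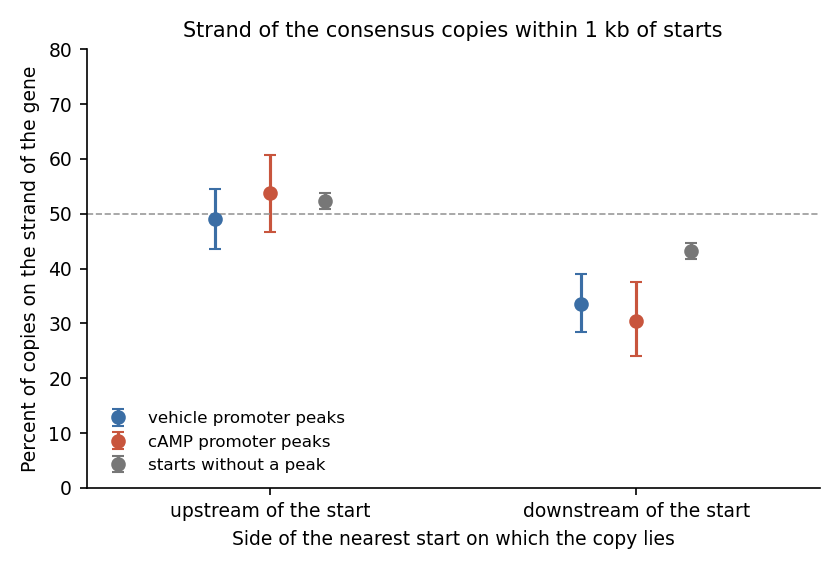
Percent of consensus copies on the strand of the gene (vertical axis, with exact 95% intervals) upstream and downstream of the start, for vehicle and cAMP promoter peaks and for the 1 kb around starts of genes without a promoter peak. The dashed line marks equal numbers on both strands, and the lowest points are the downstream copies of vehicle (33.5%) and cAMP (30.5%) promoter peaks.

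Some copies lay in repeats. Of the copies in vehicle promoter peaks 22.0% were in sequence soft-masked as repeat in the reference (18.9 to 25.4), and of those in cAMP promoter peaks 27.1% (22.7 to 31.8), against 39.0% and 43.3% in the other peaks. Copies in soft-masked sequence read TCAAGGCC in 42.0% of cases in vehicle promoter peaks (33.8 to 50.5), against 18.6% outside it (15.3 to 22.2). When the copies in soft-masked sequence were left out, the consensus was 14.7 points more frequent at vehicle promoters than in the other vehicle peaks (10.6 to 18.6). In the cAMP list the difference was then 19.4 points (14 to 24.5). This choice was made after seeing the data. In cAMP promoter peaks without a vehicle overlap 34.1% of the copies were soft-masked (24.0 to 45.4), and in the overlapped ones 25.2% (20.4 to 30.4). In vehicle the order was the other way, at 20.2% without an overlap (16.1 to 24.9) and 24.0% with one (19.4 to 29.2), and in both lists the intervals overlap. Whether reads placed in repeats bear on these peaks was not tested.

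Other motifs were searched in the same windows on both strands. The GC box GGGCGG was found in 40.9% of vehicle and 33.1% of cAMP promoter peaks, against 7.01% and 5.80% of the other peaks and 50.3% of windows at all starts. The ETS core CCGGAAG was found in 10.9% and 9.43% of promoter peaks, against 2.10% and 1.69% of other peaks and 13.1% of starts. Both motifs were thus at promoter peaks more often than in other peaks, but not more often than at starts in general, where the GC box was 9.39 points more frequent than in vehicle promoter peaks (the promoter peaks minus all starts gave -13.3 to -5.40). Among CpG-poor windows, with CpG counted in the window rather than the whole peak, the GC box was in 22.4% of vehicle promoter peaks (18.2 to 27.1) against 6.42% of other peaks (5.76 to 7.13), but the ETS core in 3.05% (1.53 to 5.39) against 2.01% (1.64 to 2.43), with intervals that overlap. CCAAT was found in 36.3% and 33.4% of promoter peaks and 42.8% of starts, and the NRF1 motif GCGCATGC in 3.09% and 2.86%, against 4.03% of starts. In the other peaks CCAAT was in 39.0% of vehicle and 38.99% of cAMP peaks, and the NRF1 motif in 0.842% and 0.707%, so that the NRF1 motif was more frequent at promoters by 2.25 points in vehicle (1.11 to 3.95) and 2.15 in cAMP (0.811 to 4.48). Among CpG-poor windows the NRF1 shares were 1.39% (0.451 to 3.20) against 0.835% (0.602 to 1.13) in vehicle. In cAMP they were 1.33% (0.276 to 3.85) against 0.687% (0.445 to 1.01), and in both lists the intervals overlap.

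GATA motifs, AGATAA or TGATAA, were found in 16.8% of vehicle and 21.7% of cAMP promoter peaks, against 34.8% and 31.6% of the other peaks and 18.1% of starts. The difference from the other peaks was -18.1 points in vehicle (-21.1 to -14.6) and -9.90 in cAMP (-14.2 to -5.06). Among CpG-poor windows, which made up most of the other peaks, the shares lay closer together, at 22.7% of vehicle promoter peaks (18.5 to 27.4) against 34.98% of other peaks (33.7 to 36.3), and in cAMP at 27.6% (21.8 to 33.9) against 31.7% (30.2 to 33.3), where the intervals overlap. AP-1 motifs, TGACTCA or TGAGTCA, showed the same order, at 8.63% and 10.3% of promoter peaks against 14.2% and 16.0% of other peaks, but were more frequent than the 5.08% of all starts (by 3.55 points in vehicle, 1.55 to 6.05, and 5.20 in cAMP, 2.42 to 8.84). Among CpG-poor windows the AP-1 shares were 10.2% (7.32 to 13.9) against 14.4% (13.4 to 15.4) in vehicle and 11.6% (7.69 to 16.5) against 16.1% (15.0 to 17.4) in cAMP, again lower at promoters. The separate intervals overlap, but overlap does not show that the shares are equal. No interval of the difference was taken within this class, here or for the other motifs. The cAMP response element TGACGTCA was found in 12 vehicle promoter peaks (1.95%) and 3 cAMP promoter peaks (0.857%), against 0.333% and 0.463% of the other peaks and 2.55% of starts. The difference from the other peaks was 1.62 points in vehicle (0.765 to 3.06) and 0.395 in cAMP (-0.235 to 2.04). Among CpG-poor windows the shares were 0.554% (0.0672 to 1.99) against 0.318% (0.182 to 0.516) in vehicle. In cAMP they were 0% (0 to 1.63) against 0.412% (0.231 to 0.679), and in both lists the intervals overlap. The E-box CACGTG was in 11.2% and 9.71% of promoter peaks, against 5.54% and 5.12% of the other peaks and 8.83% of starts. TATAAA was in 9.45% and 13.7% of promoter peaks, against 17.5% and 18.5% of the other peaks and 13.4% of starts. No test between the lists was possible for any motif, with 1 library each.

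The consensus was absent from some of the strongest promoter peaks. Pgk1 stood at 583 and 658 without a copy in either list, Tfrc at 438 and 338, and Enpp4 at 435 and 176. St6galnac6 (279 and 109), Hspa1l with Hspa1a (202 in vehicle), Nfib (174 and 167) and Cdk15 (156 and 115) were also among the 8 highest in vehicle, and Tab1 (116 and 122), Gm10801 (94.6 and 121) and Gm10800 (113 and 113) were among the 8 highest in cAMP. Gm10800 and Gm10801 are neighbours on chromosome 2. Their cAMP peaks were 1298 and 974 bp wide, against a median of 495 bp for cAMP promoter peaks. Soft-masked sequence made up 74.3% and 60.7% of them, while 2.57% of cAMP promoter peaks were more than 50% soft-masked. Whether reads placed in repeats account for these peaks was not tested. The 200 bp upstream of the starts at Pgk1 and Tfrc are printed because their peaks were among the highest of both lists without the consensus. Capitals mark the GC box, read here as CCGCCC on the other strand, and CCAAT. The other motifs searched are not in these stretches.
Pgk1, chrX:106186900-106187099, plus strand: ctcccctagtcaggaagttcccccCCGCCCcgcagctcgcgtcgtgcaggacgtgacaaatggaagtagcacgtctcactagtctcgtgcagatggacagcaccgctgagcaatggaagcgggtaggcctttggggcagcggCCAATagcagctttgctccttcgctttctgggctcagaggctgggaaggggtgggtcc
Tfrc, chr16:32608720-32608919, plus strand: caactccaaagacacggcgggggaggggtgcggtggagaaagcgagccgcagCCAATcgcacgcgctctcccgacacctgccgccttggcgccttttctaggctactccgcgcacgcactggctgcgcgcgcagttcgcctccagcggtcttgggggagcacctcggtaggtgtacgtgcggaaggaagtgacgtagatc

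Genes were then read by pathway, each list beside the 2.95% and 1.67% of all protein-coding genes with a vehicle or cAMP promoter peak. These shares are descriptions without a test. Of 94 genes taken by name as oxidative phosphorylation subunits, 18 (19.1%) had a vehicle and 15 (16.0%) a cAMP promoter peak, 13 of them both. Of these, 1 cAMP gene, Ndufaf6 (53.5), is an assembly factor caught by the name pattern. By complex, the vehicle list held 7 of 38 genes of complex I, 1 of 9 of complex III, 4 of 18 of cytochrome c oxidase and 5 of 17 of ATP synthase. The cAMP list held 4, 1, 3 and 5 of the same sets. Sdhd, of complex II, was the remaining gene in each list. The ATP synthase genes were the same 5 in both lists, Atp5b, Atp5g3 (144 and 92.9), Atp5j (135 and 161), Atp5j2 (137 and 53.9) and Atp5mpl (97.7 and 58.5). Ndufb6 scored 257 and 98.4, Cox4i1 63.8 and 105, and Uqcr10 94.6 and 68.7. Some of these genes had no promoter peak but one shared with a neighbouring gene, 6 of the 18 in vehicle and 5 of the 15 in cAMP, Cox4i1, Uqcr10 and Sdhd among them. Without them 12 (12.8%) and 10 (10.6%) of the 94 genes were left, beside 2.53% and 1.45% of all protein-coding genes counted in that way, a count added after seeing the data.

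The tricarboxylic acid cycle and its aspartate exchange had peaks at 6 of 23 genes in vehicle (26.1%) and 5 in cAMP (21.7%). Among them Got1, Idh3a (85.8 and 72.1), Ogdh and Sdhd (121 and 56.3) were in both, and Got2 (100.2) in vehicle alone. Without genes whose peaks were all shared with a neighbour these counts were 4 and 3. Glycolysis had peaks at 7 of 31 genes in vehicle (22.6%) and 6 in cAMP (19.4%). Among them Aldoa, Pgk1, Pgam1 (106 and 96.9), Pkm (165 and 71.3) and Ldhb (58.3 and 52.4) were in both lists, Aldoa through a peak shared with a neighbouring gene, Gapdh (61.4) in vehicle alone and Pfkm (58.5) in cAMP alone. The scores at Gapdh and Pfkm were under 75, near the lower limit of the lists. Pkm had a second vehicle peak, at 80.6, 56 bp upstream of another of its starts.

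**Figure D5:**
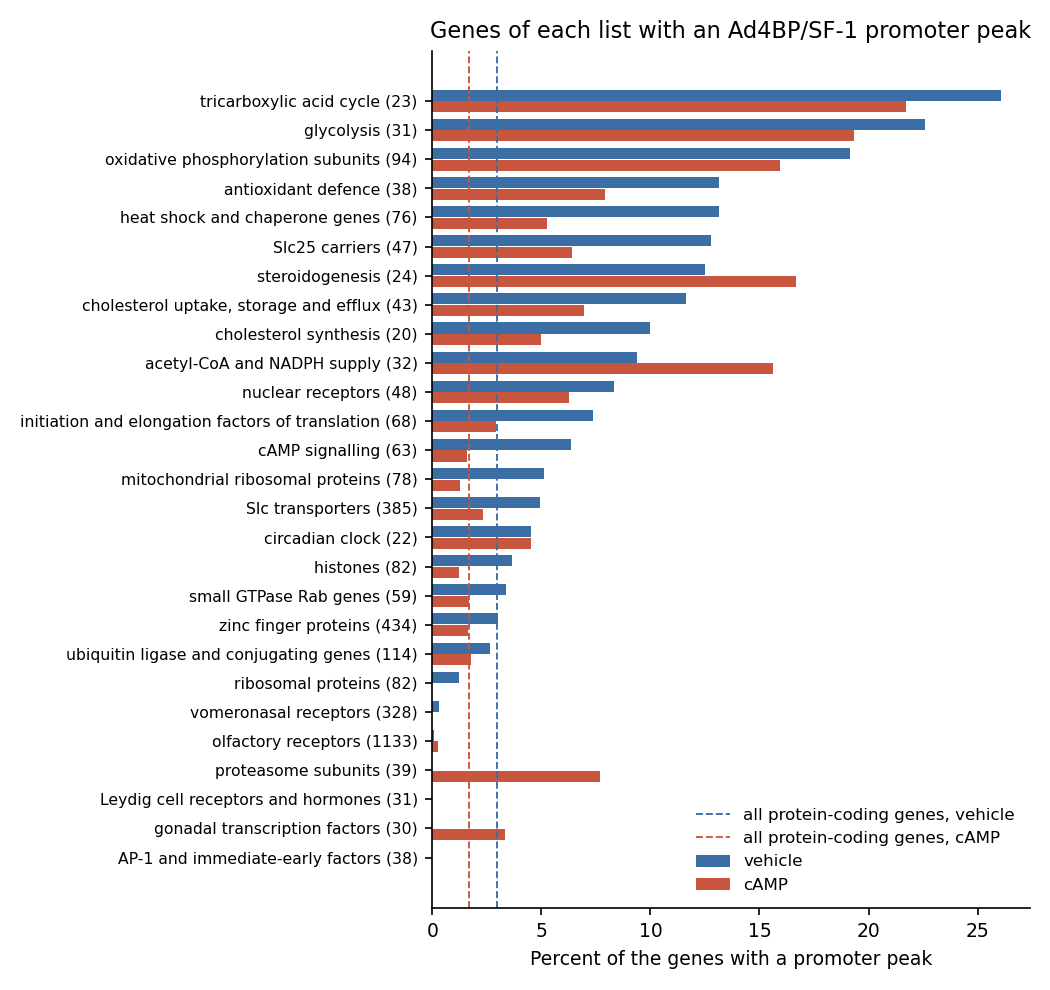
Percent of the genes of each list (horizontal axis) with a vehicle or cAMP promoter peak, for lists of 20 or more genes, with the number of genes in brackets. Dashed lines mark the share over all protein-coding genes, 2.95% for vehicle and 1.67% for cAMP. The tricarboxylic acid cycle, glycolysis and oxidative phosphorylation have the longest vehicle bars, and bars at 0 mean that no gene of the list had a promoter peak.

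Steroidogenesis had promoter peaks at 3 of 24 genes in vehicle and 4 in cAMP, with modest scores. Star scored 69.7 in vehicle and 59.2 in cAMP, with the peak centre 32 and 86 bp upstream of the start. Fdx1 scored 76.7 and 52.8, and H6pd, which makes NADPH in the endoplasmic reticulum, 56.7 and 95.1 without the consensus. Cyp11a1 had a promoter peak in cAMP alone, at 78.3 and 783 bp downstream of the nearest start, and the nearest vehicle peak was centred 2897 bp upstream (65.6). Hsd17b3, which makes testosterone, had peaks 1240 and 1321 bp upstream, outside the window. Hsd3b1, Cyp17a1, Insl3 and Lhcgr had no promoter peak in either list, and neither did Nr5a1 itself, whose nearest peaks lay 4666 bp (vehicle, 315) and 4374 bp (cAMP, 59.8) upstream.

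Cholesterol uptake, storage and efflux had peaks at 5 of 43 genes in vehicle and 3 in cAMP. Abca1, the cholesterol exporter, scored 143 and 73.9 without the consensus, Scap, the sterol sensor that escorts SREBP, 98.2 and 68.1, and Stard5, a sterol carrier, 163 and 102. The lipid droplet genes Plin1 (61.5) and Plin5 (101) were in vehicle alone. In cholesterol synthesis Dhcr7 (71.0, shared with the start of Nadsyn1) had a promoter peak in vehicle alone. In the supply of acetyl-CoA and NADPH, with 3 of 32 genes in vehicle and 5 in cAMP, Acacb, Me3 (65.6 and 62.3) and Mpc1 were in both. Acly, which makes cytosolic acetyl-CoA (53.6), and Idh1 (51.1) were in cAMP alone, close to the lowest deposited score.

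Antioxidant defence had peaks at 5 of 38 genes in vehicle and 3 in cAMP, with Gpx1 (70.1 and 65.7) and Nfe2l1 (56.1 and 55.7) in both, Mgst3 (116), Gpx4 (85.5) and Sod1 (56.0) in vehicle alone, and Prdx3 (57.04) in cAMP alone. Heat shock and chaperone genes had peaks at 10 of 76 in vehicle and 4 in cAMP. Hspa8, Hspa9 (229 and 67.7), Hspa4 and Dnajc11 were in both. Of 47 Slc25 mitochondrial carriers 6 had a vehicle and 3 a cAMP peak, and Slc25a39 was among those in both.

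Among 48 nuclear receptors, Nr0b2, which encodes the repressor SHP, scored 140 and 53.0 and the thyroid hormone receptor Thra 85.8 and 74.8. Esrra, whose product binds a site much like that of Ad4BP/SF-1, scored 97.1 and Ppara 53.2 in vehicle alone. The cAMP peak at Nr1d1 lay 975 bp upstream (57.2) and was overlapped by a vehicle peak of 135 that was centred outside the window. cAMP signalling had peaks at 4 of 63 genes in vehicle, Akap10 (205), Akap7 (86.1), Crtc3 (59.2) and Pde8b (51.2), and at Akap10 alone in cAMP (94.95). The gonadal factors gave 1 of 30, Cited2 (53.2 in cAMP), and the clock genes 1 of 22 in each list, Arntl (94.1) in vehicle and Nr1d1 in cAMP.

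Other sets were read in the same way. None of 38 AP-1 and immediate-early genes and none of 31 Leydig cell receptor and hormone genes had one in either list, and neither did any of 15 Sertoli cell and 14 macrophage markers. Peak lists do not measure expression, so the Leydig cell label could not be checked against marker levels. Of 18 germ cell markers 1, Hspa1l, had one in vehicle, through the peak it shares with Hspa1a. Beside shares of 2.95% and 1.67% over all genes, a count of 0 in lists of this size is not a result about them. Ribosomal protein genes had 1 of 82 in vehicle (1.22%) and 0 in cAMP, counts too small to be set apart from those shares. Mitochondrial ribosomal proteins had 4 of 78 in vehicle (5.13%) and 1 in cAMP (1.28%). Proteasome subunits had 0 of 39 in vehicle and 3 in cAMP (7.69%), Psmd13 (73.4, shared with a neighbouring gene), Psmd4 (53.1) and Psmb10 (50.3). Olfactory receptors, which are silent in most tissues, had 1 of 1133 in vehicle and 3 in cAMP. Of 948 genes on chromosome X 5 (0.527%) had a vehicle promoter peak, against 2.004% to 4.71% on the autosomes, and 4 (0.422%) had a cAMP promoter peak, against 0.763% to 3.08%. The strongest of these was at Pgk1. Chromosome X, of which male cells carry a single copy, held 34 vehicle and 23 cAMP peaks in all, and its lower coverage in male cells and lower binding cannot be told apart.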

How the data were processed

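The deposited files are 2 peak lists, with the position and score of each peak. Per the labels and the methods, the authors aligned reads to mm10 using Bowtie (version 0.12.8 in the submitters' processing notes, which also name FastQC 0.11.5), kept uniquely mapped reads and called peaks with MACS. Whether the input DNA served as the control is not given in the sources used here. The authors' score is 10 times the negative log10 of the p-value, and no deposited score was under 50, above the threshold stated in the methods, which also name another Bowtie release. The lists hold no read numbers, so depth is unknown. Reads with several positions were dropped, which can remove peaks in repeats.

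Starts were taken from GENCODE M21 and sequences from the RefSeq copy of GRCm38, the build of mm10, with Python 3.11.15, pandas 2.3.3, numpy 2.4.6 and pysam 0.24.0. Shares have exact Clopper-Pearson intervals (scipy 1.17.1) and differences between shares have Newcombe intervals (statsmodels 0.14.6). The 117 intervals of differences were not adjusted for their number. Peaks of 1 library are not replicates, so no p-value is given. Figures were drawn with matplotlib 3.10.9. The functions were tested on simulated data. Most genes were named by fixed rules. These were the 12 highest scores of each list, the 8 highest without an overlap and the 8 highest without the consensus. The rules also covered members of the gene lists, genes with several peaks and peaks at the edge of the window. Other genes were named outside the rules. They include examples among the shared genes with high scores in both lists. They also include pairs picked by the ratio of their scores after those were seen. The members, motifs and gene lists were chosen with earlier results of these data known. Some genes that these rules would name are not reported here. Alternatives tried were other windows, sets of starts, score limits, overlap rules and consensus forms.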

Additional observations from a re-analysis of the deposited data

How the results depend on the processing

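Fewer or more peaks fell at promoters as the window, the starts or the score limit changed. The share of vehicle peaks was 7.08% within 500 bp, 15.7% within 2 kb, 8.37% with outermost starts alone, 9.75% with basic transcripts, and 12.4% and 13.2% at scores of at least 75 and 100. For cAMP these were 5.47%, 13.6%, 6.63%, 9.99% and 9.92%, without the basic transcripts, which left the share within its interval. Genes with a vehicle promoter peak fell to 350 and 217 at scores of at least 75 and 100, and those with a cAMP promoter peak to 169 and 99. The cAMP genes numbered 233 within 500 bp and 550 within 2 kb, and genes in both lists 170 within 500 bp and 128 and 83 at the 2 score limits. Upstream centres reached 63.0% of cAMP promoter peaks at scores of at least 100.

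Overlap of vehicle promoter peaks was 37.3% at scores of at least 75 and 50.2% in lists of equal length. Overlap of cAMP promoter peaks was 68.6% within 2 kb and in lists of equal length, and 83.7% at scores of at least 100. The difference in overlap from the other vehicle peaks was 3.61 points within 500 bp, 4.25 in lists of equal length (-0.514 to 9.01), 0.335 against other peaks within 5 kb of a start and 4.18 among CpG-poor peaks alone, each with an interval that holds 0, and turned to -0.056 and -0.328 at the 2 score limits. The cAMP difference in overlap kept its direction and stayed above 0 in every alternative run. The vehicle difference in consensus was 4 points within 2 kb, 14.7 outside soft-masked sequence, 6.35 among CpG-poor peaks alone and -4.27 against other peaks within 5 kb (-8.09 to -0.593). The cAMP difference in consensus was -0.357 and -2 at the 2 score limits and 0.395 against other peaks within 5 kb. It was 19.4 points outside soft-masked sequence (14 to 24.5) and 11 among CpG-poor peaks alone (5.78 to 15.1). The difference in scores of 100 or more was 2.78 points for vehicle against other peaks within 5 kb (-1.91 to 7.53), and for cAMP 3.81 within 2 kb and 6.56 at a limit of 75. Comparisons with peaks within 5 kb, outside soft-masked sequence, among CpG-poor peaks and with peaks near a single gene were chosen after seeing the data. No paired analysis was possible because each condition had 1 library. With 1 library per condition and unknown depth, no difference between vehicle and cAMP can be separated from a difference between libraries, and the cause of each change above was not tested.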
